A study of Mus musculus with 4 samples.

Results

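The CXC chemokines are small secreted proteins that steer white blood cells, and 10 of their genes (Cxcl1, Cxcl2, Cxcl3, Cxcl5, Cxcl9, Cxcl10, Cxcl12, Cxcl13, Cxcl15 and Cxcl16) were followed across 4 RNA-seq libraries from mice with and without the deubiquitinating enzyme Usp25. The genes were taken by symbol, and all 10 were found among the 24421 genes listed and passed the filter for testing. Levels are FPKM, the fragments assigned to a gene divided by transcript length and by the mapped fragments of the library, so that levels of different genes can be compared per length. Libraries 139 and 140 are labelled wild type (Usp25+/+), and libraries 826 and 850 are labelled Usp25-/-. All 4 are labelled as colon of C57BL/6 females aged 8 weeks that received DSS (dextran sulfate sodium, a chemical used to injure the gut lining) at 2.5% for 5 days, with a return to normal water over 2 days before sampling. The wild-type mice had this treatment too, and untreated animals were not analysed here.

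A chemokine binds a G-protein-coupled receptor on a passing leukocyte and sets the direction in which that cell moves. CXC chemokines with the amino acids Glu-Leu-Arg (ELR) just before their first cysteine draw neutrophils, and most of them act on Cxcr2. Several of their genes, such as Cxcl1 and Cxcl2, are classical targets of NF-kB downstream of IL-1, TNF, Toll-like receptors and IL-17. Cxcl9 and Cxcl10 lack that motif, are induced by interferons and act on Cxcr3 of activated T cells and NK cells. Cxcl12, Cxcl13 and Cxcl16 are counted as homeostatic, since they place stem cells, B cells and T cells in resting tissue. Usp25 is known as a regulator of ubiquitin chains in IL-17 and innate immune signalling, and the study set the genotypes side by side after DSS.

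The libraries did not match their labels in tissue or sex. Of 14 colon epithelial markers listed, 11 were below 1 FPKM in every library, and Cdx1, Zg16 and Aqp8 were listed at 0 in all 4. The 15 lung epithelial markers summed to 2609, 4760, 5572 and 5664 FPKM in 139, 140, 826 and 850. Y-linked Ddx3y and Eif2s3y stood between 12.7 and 44.7 FPKM, and Xist, the RNA of the inactive X chromosome, did not exceed 0.110 FPKM. Usp25 followed the genotype labels, at 38.5 and 16.6 FPKM in Usp25+/+ and 2.65 and 1.71 FPKM in Usp25-/-. The genotype labels are used below, and nothing is read from the values about colon or DSS. These are whole-tissue libraries, so that fewer cells of a type and less RNA per cell cannot be told apart.

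The ELR motif that separates the neutrophil-attracting genes from the rest is visible in the reference coding sequence. Each line below gives 30 bases of exon 2 of the mouse gene (build mm9, GENCODE vM1), read 5′ to 3′ on the coding strand, with the 3 codons before the first cysteine codon of the Cys-x-Cys motif in capitals. A script translated the annotated reading frames and found Glu-Leu-Arg at that place in Cxcl1, Cxcl2, Cxcl3, Cxcl5 and Cxcl15, and in no other of the 10.
Cxcl1, chr5:91320507-91320536, plus strand: gccaatGAGCTGCGCtgtcagtgcctgcag
Cxcl2, chr5:91333153-91333182, plus strand: gccagtGAACTGCGCtgtcaatgcctgaag
Cxcl3, chr5:91215379-91215408, plus strand: gccagtGAGCTGCGCtgtcagtgcctgaac
Cxcl5, chr5:91188738-91188767, plus strand: gcaacgGAGCTGCGTtgtgtttgcttaacc
Cxcl15, chr5:91224239-91224268, plus strand: actcaaGAGCTACGAtgtctgtgtattcag
Cxcl9, chr5:92755862-92755891, minus strand: ataaggAATGCACGAtgctcctgcatcagc
Cxcl10, chr5:92777201-92777230, minus strand: gcaaggACGGTCCGCtgcaactgcatccat
Cxcl12, chr6:117121511-117121540, plus strand: agcctgAGCTACCGAtgcccctgccggttc
Cxcl13, chr5:96387668-96387697, plus strand: tacacaAACTTAAAAtgtaggtgttctgga
Cxcl16, chr11:70272623-70272652, minus strand: agtgtcGCTGGAAGTtgttcttgtgatcgt

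The 5 ELR genes lie in a cluster on chromosome 5, between 91188325 and 91334935 of mm9, a stretch of 146.6 kb in the order Cxcl5, Cxcl3, Cxcl15, Cxcl1 and Cxcl2. Cxcl9 and Cxcl10 form a pair farther along the same chromosome, with starts 20.8 kb apart on the minus strand, and Cxcl13 lies beyond them. Cxcl12 is on chromosome 6 and Cxcl16 on chromosome 11. Cxcl2 and Cxcl3 are close copies, with 91.4% identical bases over 291 aligned coding bases and a shared exact run of 110 bases, longer than the sequenced reads as the labels give them. Reads of that run could be counted for either gene, so the split between Cxcl2 and Cxcl3 is uncertain. The longest run that Cxcl1 shares with either of them was 23 bases.

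The start-proximal promoters carry the NF-kB consensus in Cxcl1, Cxcl2, Cxcl3 and Cxcl10. Promoters come from RefSeq on GRCm38.p6, where 8 of the 10 genes matched (all but Cxcl5 and Cxcl16), and 250 bases before each start were searched on both strands for that consensus, for the interferon-stimulated response element GAAANNGAAA and for the STAT motif TTCNNNGAA. Over all 32851 windows of that table, 7.25% held the NF-kB consensus, 2.98% GAAANNGAAA and 7.02% TTCNNNGAA. These stretches are shown because Cxcl1, Cxcl2 and Cxcl3 share an 11-base core in which matches on both strands overlap, while Cxcl10 holds both an interferon element and NF-kB matches. Capitals mark the matches, read 5′ to 3′ on the gene's strand.
Cxcl1, chr5:90891159-90891199, plus strand: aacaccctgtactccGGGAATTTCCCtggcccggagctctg
Cxcl2, chr5:90903787-90903827, plus strand: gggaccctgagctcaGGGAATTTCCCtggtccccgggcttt
Cxcl3, chr5:90786013-90786053, plus strand: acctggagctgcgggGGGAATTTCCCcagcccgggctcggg
Cxcl10, chr5:92348968-92349117, minus strand: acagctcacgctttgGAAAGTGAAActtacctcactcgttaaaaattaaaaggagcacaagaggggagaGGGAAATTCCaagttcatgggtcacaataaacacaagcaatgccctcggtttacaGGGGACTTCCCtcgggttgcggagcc
In Cxcl10 the first capitals are GAAANNGAAA, 213 to 204 bases before the start, and the others are NF-kB matches. The windows of Cxcl9, Cxcl12, Cxcl13 and Cxcl15 held none of the 3 motifs, which says only that these letters are not in them.

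No CXC chemokine passed the test between the genotypes. Limma on log2(FPKM + 1), adjusted over 12011 tested genes with a threshold of 0.05, called 0 of the 10 and 0 genes in all (0%). At an unadjusted limma p of 0.05 it gave 1 of the 10, Cxcl15, against 375 of all tested genes (3.12%). Usp25 itself was not called after adjustment (limma adjusted p = 0.960, unadjusted limma p of 0.00107). Its log2 fold change, Usp25-/- minus Usp25+/+, was -3.07 with a standard error of 0.47. The lack of a call therefore does not show that a chemokine is unchanged. The smallest p that an exact two-sided permutation test can reach with 2 libraries in each genotype is 0.333. The levels are therefore described library by library, and each fold change is given with its standard error (SE).

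**Figure D1:**
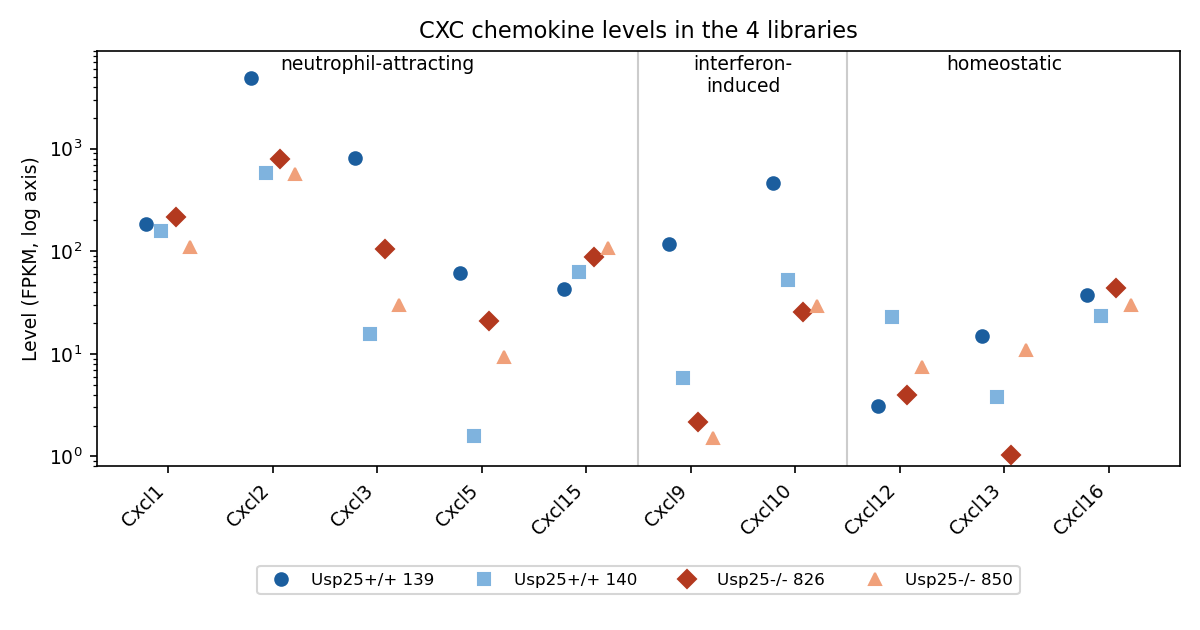
Level of each CXC chemokine in FPKM (log axis) in the 4 libraries, with 1 point per library and no averaging, grouped by role. Library 139 lies far above the others in Cxcl2, Cxcl3, Cxcl9 and Cxcl10, while Cxcl1 and Cxcl16 span less than 2.0-fold and Cxcl15 is higher in both Usp25-/- libraries.

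Among the neutrophil-attracting genes, Cxcl2 was the most abundant CXC chemokine in every library. It encodes a macrophage-derived attractant of neutrophils also called MIP-2, and stood at 4867 FPKM in 139 and 580 in 140 (Usp25+/+), beside 800 in 826 and 569 in 850 (Usp25-/-). Library 139 was thus 6.08-fold above the next highest library, and 140 lay between the Usp25-/- libraries. The genotype means were 2724 ± 3031 and 685 ± 164 FPKM (SD, n = 2 each), and on log2(FPKM + 1) the fold change was -1.32 log2 units (SE 1.03; limma adjusted p = 0.960). Without 139 it was 0.22. In 139 Cxcl2 was the 11th most abundant of all listed genes, against places 135, 103 and 123 in 140, 826 and 850.

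Cxcl3 and Cxcl5 showed the widest range among the ELR genes. Cxcl3, a close relative of Cxcl2 with the same receptor, was listed at 819 FPKM in 139 and 15.5 in 140 (Usp25+/+), beside 106 in 826 and 30.2 in 850 (Usp25-/-). Cxcl5, known in the mouse as LIX and as a product of lung epithelial cells, was listed at 60.7 FPKM in 139 and 1.59 in 140 (Usp25+/+), beside 20.7 in 826 and 9.30 in 850 (Usp25-/-). In both genes the Usp25+/+ libraries were the highest and the lowest of the 4, with the Usp25-/- libraries between them, so that the 2 Usp25+/+ mice differed by 52.8-fold in Cxcl3 and 38.2-fold in Cxcl5. The log2 fold changes were -1.01 (SE 1.86) for Cxcl3 and 0.24 (SE 1.48) for Cxcl5. Their sign depended on the library left out: without 139 they were 1.81 and 2.53, and without 140 they were -3.83 and -2.04.

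Cxcl1, the keratinocyte-derived attractant KC that also acts on Cxcr2, varied little. Its levels were 185 and 158 FPKM in Usp25+/+ and 218 and 111 FPKM in Usp25-/-, and the groups overlapped. The log2 fold change was -0.13 (SE 0.43), with a 95% interval from -1.24 to 0.97, so that a change of about 1 log2 unit in either direction is not excluded. That interval is not a limit of detection for the adjusted test. Cxcl1 and Cxcl2 share the promoter core shown above, and the ratio of Cxcl2 to Cxcl1 was 26.3 in 139 and 3.68, 3.67 and 5.12 in 140, 826 and 850.

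Cxcl15, also called lungkine, is a mouse chemokine of lung epithelium, and it was the only 1 of the 10 in which both Usp25-/- libraries lay above both Usp25+/+ libraries. It stood at 43.3 FPKM in 139 and 62.8 in 140 (Usp25+/+), beside 87.5 in 826 and 109 in 850 (Usp25-/-). The means were 53.1 ± 13.8 and 98.0 ± 14.9 FPKM (SD, n = 2 each), and the lowest Usp25-/- library was 1.39-fold above the highest Usp25+/+ library. The log2 fold change was 0.89 (SE 0.34; unadjusted limma p of 0.0475, limma adjusted p = 0.960). Such a separation upwards was found in 19.0% of all tested genes. Leaving out 1 library gave values from 0.63 without 139 to 1.15 without 140, and without overlap between the genotypes the sign could not turn. The summed lung epithelial markers had the same order of libraries as Cxcl15. Their medians did not, at 59.1, 81.6, 66.4 and 101 FPKM in 139, 140, 826 and 850. Of these 15 markers 10 were higher in Usp25-/- and 4 without overlap, and their part in the Cxcl15 difference was not tested. Sftpb, a surfactant protein gene, stood at 865, 1139, 3284 and 1581 FPKM and Sftpc at 339, 2347, 1376 and 2596 FPKM in 139, 140, 826 and 850, neither in the order of Cxcl15.

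Markers of neutrophils, the cells that the ELR chemokines attract, were highest in the same library as Cxcl2, Cxcl3 and Cxcl5. All 11 tested of 13 listed neutrophil markers were highest in 139, where the list summed to 42912 FPKM, against 861 FPKM in 140, 2234 in 826 and 1352 in 850. Without 139, 10 of the 13 reached the filter for testing. S100a8 and S100a9, the calcium-binding proteins that fill neutrophil cytosol, stood at 19445 and 18028 FPKM in 139 and between 272 and 1013 FPKM elsewhere. Mpo and Elane, granule genes of immature neutrophils, were below 1 FPKM in every library. Whether neutrophil content took part in the Cxcl2, Cxcl3 and Cxcl5 values was not tested.

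The receptors of the ELR chemokines went opposite ways in the Usp25+/+ libraries. Cxcr2, the main neutrophil receptor, was listed at 103 FPKM in 139 and 5.30 in 140 (Usp25+/+), beside 9.67 in 826 and 10.1 in 850 (Usp25-/-) (log2 fold change -1.24, SE 1.28). Cxcr1, its neighbouring relative, was listed at 19.7 FPKM in 139 and 84.7 in 140 (Usp25+/+), beside 42.8 in 826 and 57.8 in 850 (Usp25-/-) (0.27, SE 0.71). Library 139 was thus the highest in Cxcr2 and the lowest in Cxcr1, and 140 the reverse. Ackr1, a decoy receptor of venules and red cells that binds CXC and CC chemokines, was listed at 4.29, 0.659, 3.51 and 0.415 FPKM in 139, 140, 826 and 850.

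Of the 18 cytokine, IL-17 and NF-kB genes listed upstream of the ELR chemokines, all were tested and none was called by limma, with 15 lower and 3 higher in Usp25-/-. Their median log2 fold change was -0.63, beside 0.03 over all tested genes, and 14 of the 18 were highest in 139, against 29.9% of all tested genes. Without 139 the median was 0.12 over 17 genes. Il17f, among the 15 lower and the 14 highest in 139, reached the filter only through that library. The largest changes were those of Tnf, Il1a and Csf3. Tnf, a cytokine that activates NF-kB, stood at 305 and 69.2 FPKM in Usp25+/+ and 43.7 and 27.1 FPKM in Usp25-/-, without overlap. Its log2 fold change was -2.05 (SE 0.75; unadjusted limma p of 0.0395, limma adjusted p = 0.960). Separation without overlap was downwards in 6 of the 18 and upwards in 1, against 14.7% and 19.0% of all tested genes. Il1a, an alarm cytokine, was listed at 1370 and 112 against 214 and 68.6 FPKM, and the granulocyte growth factor Csf3 at 118 and 1.14 against 6.43 and 2.78 FPKM, both with overlapping genotypes.

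The interferon-induced pair was lower in both Usp25-/- libraries than in both Usp25+/+ libraries, though neither gene passed the test. Cxcl9 was listed at 117 FPKM in 139 and 5.83 in 140 (Usp25+/+), beside 2.18 in 826 and 1.53 in 850 (Usp25-/-). Cxcl10 was listed at 465 FPKM in 139 and 52.9 in 140 (Usp25+/+), beside 25.4 in 826 and 29.5 in 850 (Usp25-/-). Within Usp25+/+, 139 exceeded 140 by 20.1-fold in Cxcl9 and 8.81-fold in Cxcl10, while 140 exceeded the higher Usp25-/- library by 2.67-fold and 1.79-fold.

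The log2 fold change was -3.32 for Cxcl9 (SE 1.31, 95% interval -6.65 to 0.0049) and -2.48 for Cxcl10 (SE 1.01, 95% interval -5.05 to 0.089), each with a limma adjusted p of 0.960. Without 139 they were -1.27 and -0.92, and without 140 -5.38 and -4.04. A separation downwards was found in 2 of the 10 chemokines, these 2, and in 14.7% of all tested genes. The ratio of Cxcl10 to Cxcl9 was 3.97, 9.07, 11.6 and 19.3 in 139, 140, 826 and 850.

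Cxcl11, the third ligand of Cxcr3, was listed at 7.18 FPKM in 139 and 0.0389 in 140, beside 0 in both Usp25-/- libraries, with a log2 fold change of -1.54 (SE 0.99). Cxcl11 reached the filter for testing only through 139, and it was not tested without that library. The receptor of these ligands, Cxcr3, was listed at 2.07 FPKM in 139 and 0.591 in 140 (Usp25+/+), beside 0 in 826 and 0.462 in 850 (Usp25-/-), below the filter for testing. The 13 listed T and NK cell markers summed to 42.0, 88.8, 54.8 and 86.3 FPKM in 139, 140, 826 and 850, and their medians were 2.04, 1.70, 0.959 and 2.77 FPKM. Library 139 was thus the lowest by sum, of which Cd2 made up the most in 140, 826 and 850, and the second highest by median. The part of these cells in the Cxcl9 and Cxcl10 values was not tested. The most abundant markers were the adhesion molecule Cd2, at 11.4, 65.4, 41.5 and 46.7 FPKM, and the interleukin-7 receptor gene Il7r, at 12.2, 3.12, 4.61 and 8.83 FPKM in the same order.

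Of 17 interferon ligand, receptor and factor genes, 15 were tested, 13 were lower and 2 higher in Usp25-/-, and limma called none. In 7 of the 15 both Usp25-/- libraries lay below both Usp25+/+ libraries, as they did in 14.7% of all tested genes. The 7 include Ifng and Il12b, which reached the filter for testing only through 139, where both were highest. The median log2 fold change was -0.98, or -0.13 over the 13 genes tested without 139, and 13 of the 15 were highest in 139. With no filter on low values all 17 were tested, 13 lower and 4 higher, and the median was -0.65. Ifng, the cytokine for which Cxcl9 is a marker gene, was listed at 8.36 FPKM in 139 and 0.456 in 140, beside 0 in both Usp25-/- libraries. It reached the filter for testing only through 139. Irf1, an interferon-induced transcription factor, stood at 242 and 78.6 against 30.6 and 46.0 FPKM, without overlap. Its log2 fold change was -1.85 (SE 0.60; unadjusted limma p of 0.0265, limma adjusted p = 0.960). Irf7, the factor of the type I response, stood at 56.1 and 5.35 against 5.40 and 4.82 FPKM, so that 140 lay between the Usp25-/- libraries there.

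**Figure D2:**
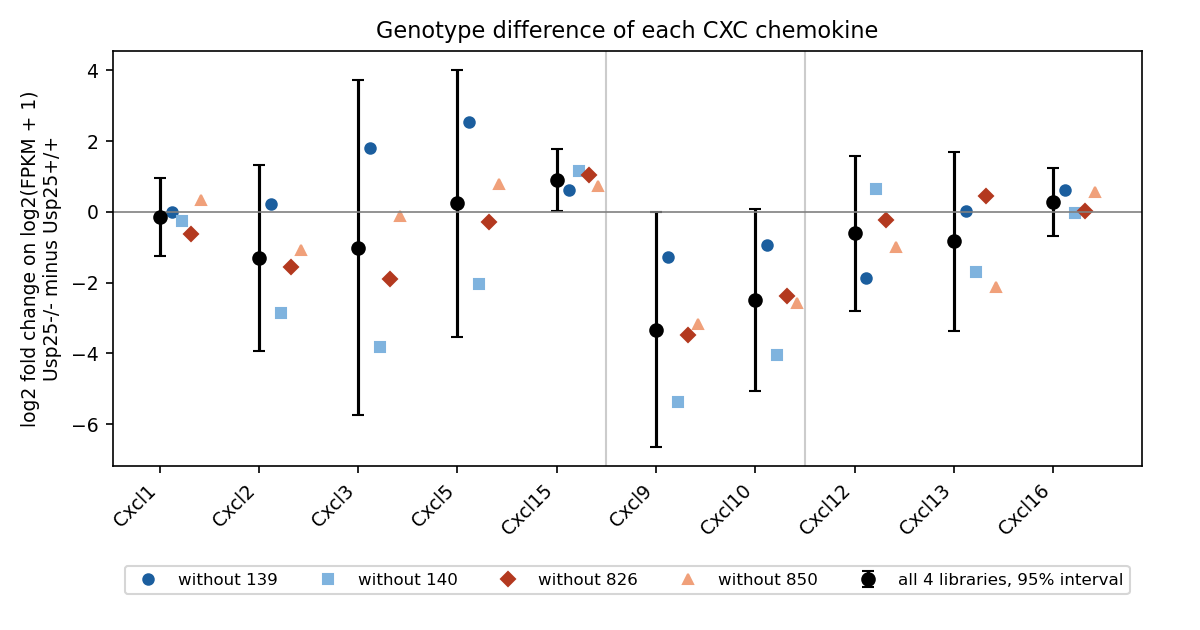
Log2 fold change of each chemokine on log2(FPKM + 1), Usp25-/- minus Usp25+/+. Black points are the fit to all 4 libraries with 95% intervals, and coloured points are fits without 1 library. Without 1 library Cxcl3 runs from -3.83 to 1.81 and Cxcl5 from -2.04 to 2.53, and Cxcl9, Cxcl10 and Cxcl15, whose genotypes do not overlap, cannot change sign.

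The homeostatic genes did not separate the genotypes. Cxcl12, the stromal ligand of Cxcr4 that retains blood stem cells in marrow and guides vessels, was listed at 3.08 FPKM in 139 and 22.7 in 140 (Usp25+/+), beside 3.94 in 826 and 7.41 in 850 (Usp25-/-). It was the only 1 of the 10 with 140 as its highest library. The log2 fold change was -0.61 (SE 0.86), and it was 0.66 without 140. All 7 endothelial markers were also highest in 140, and their sums were 96.5, 222, 82.5 and 151 FPKM in 139, 140, 826 and 850. Pecam1, a junction protein of endothelium, stood at 28.7, 56.6, 22.6 and 44.4 FPKM and the tight junction gene Cldn5 at 20.8, 64.3, 24.7 and 40.1 FPKM. The 8 fibroblast and stromal markers summed to 51.9, 58.9, 46.0 and 125 FPKM and were led by Dcn and Col3a1, matrix genes that reached 59.7 and 26.2 FPKM in 850. The part of these cell types in the Cxcl12 values was not tested.

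The receptors of Cxcl12 were lower in both Usp25-/- libraries without passing the test. They were the 2 of the 7 tested CXC receptors with a separation downwards, which was found in 14.7% of all tested genes. Cxcr4, carried by most leukocytes, stood at 111 FPKM in 139 and 61.4 in 140 (Usp25+/+), beside 48.9 in 826 and 57.1 in 850 (Usp25-/-) (-0.64, SE 0.39). Ackr3, which removes Cxcl12 without G-protein signalling, stood at 19.9954 and 29.2 FPKM against 15.03 and 18.2 FPKM (-0.52, SE 0.32).

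Cxcl13 draws B cells into lymphoid follicles through Cxcr5. It was listed at 15.1 FPKM in 139 and 3.81 in 140 (Usp25+/+), beside 1.04 in 826 and 10.9 in 850 (Usp25-/-), and the 2 Usp25-/- libraries differed more than 10-fold, the widest gap between them among the 10. The log2 fold change of -0.83 (SE 1.00) became 0.44 without 826 and 0.036 without 139. Cxcr5 was near 1 FPKM, at 1.60, 0.788, 0.234 and 1.91 FPKM in 139, 140, 826 and 850. Ltb, a lymphotoxin subunit that induces Cxcl13 in lymphoid stroma, had the same order of libraries as Cxcl13, at 12.1, 4.02, 1.73 and 7.81 FPKM. Among the 9 B cell and follicular dendritic cell markers, 4 were tested, all with a positive log2 fold change, and the list summed to 36.0, 140, 110 and 138 FPKM. Most of that sum was Mfge8, a phagocytosis gene also made by macrophages, while Cd79b of the B cell receptor stood at 0.885, 2.86, 2.32 and 7.21 FPKM.

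Cxcl16, made as a membrane-bound protein and released by the proteases Adam10 and Adam17, was the steadiest of the 10. It stood at 37.4 FPKM in 139 and 23.6 in 140 (Usp25+/+), beside 44.0 in 826 and 30.1 in 850 (Usp25-/-), a span of 1.87-fold, with overlapping genotypes. The log2 fold change was 0.28 (SE 0.38) with a 95% interval from -0.68 to 1.25. Its receptor Cxcr6, found on tissue T cells and NKT cells, was listed at 1.51 and 1.81 against 2.47 and 2.49 FPKM, higher in both Usp25-/- libraries but not called (0.39, SE 0.31). A separation upwards was found in 1 of the 7 tested CXC receptors and in 19.0% of all tested genes. Of 11 partners and regulators of the homeostatic genes, 9 were tested, with 6 lower, 3 higher and a median of -0.19. Ccl21a (-0.78, SE 0.64), a chemokine of lymphatic vessels, Ltb (-0.73, SE 0.73) and Adam17 (-0.55, SE 0.49) had the largest fold changes, and none passed.

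The order of the 10 chemokines was alike at the top and variable below. Cxcl2 made up 73.6% of the summed chemokine FPKM in 139 and 62.6%, 61.1% and 62.7% in 140, 826 and 850. Cxcl1 followed in 140, 826 and 850, at 17.0%, 16.6% and 12.25%, but held 2.80% in 139, where Cxcl3 and Cxcl10 stood above it. Cxcl15 was 7th in 139, 4th in 826 and 3rd in 140 and 850. In 850 Cxcl15 (109 FPKM) and Cxcl1 (111 FPKM) were level, as were Cxcl3, Cxcl16 and Cxcl10 (30.2, 30.1 and 29.5 FPKM).

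By role, the ELR genes held 90.3%, 88.3%, 94.1% and 91.2% of the sum in 139, 140, 826 and 850, so that their share moved little while their sum ran from 817 to 5975 FPKM. The interferon-induced pair held 8.81% and 6.34% in Usp25+/+ and 2.11% and 3.42% in Usp25-/-. The 3 homeostatic genes summed to between 48.5 and 55.6 FPKM in every library. Within that sum Cxcl12 ran from 3.08 to 22.7 FPKM and Cxcl13 from 1.04 to 15.1 FPKM. All 10 together took 1.24% of the total FPKM in 139 and between 0.170% and 0.231% in the other libraries.

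**Figure D3:**
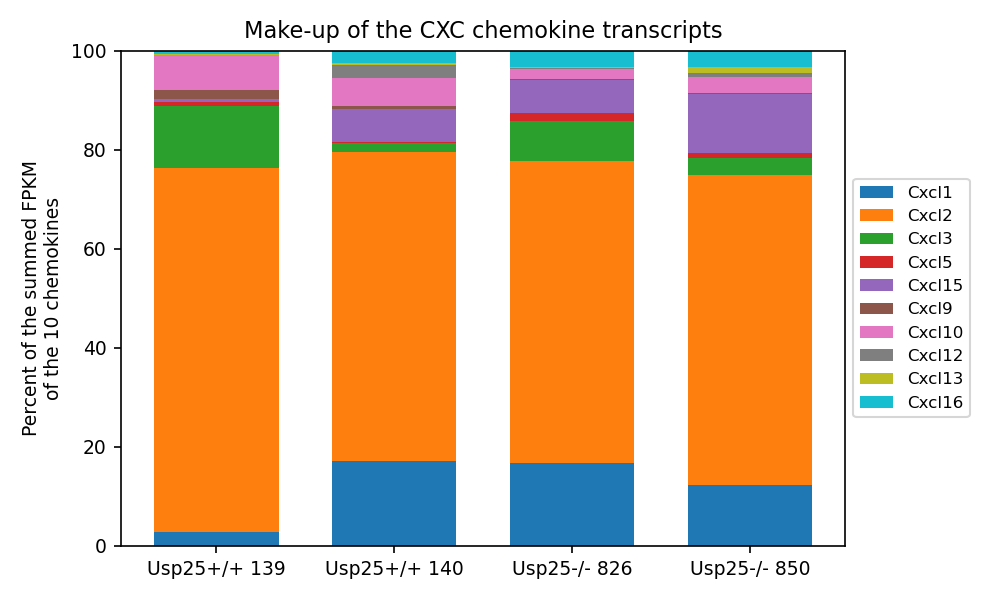
Percent of the summed FPKM of the 10 chemokines held by each, in 1 stacked bar per library. Cxcl2 fills 73.6% of the bar of 139 and 61.1% to 62.7% of the others, and the share of Cxcl10 is larger in both Usp25+/+ libraries (7.04% and 5.71%) than in both Usp25-/- libraries (1.94% and 3.25%).

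Over the whole group, 7 of the 10 were lower and 3 higher in Usp25-/-, with a median log2 fold change of -0.72 beside 0.03 over all tested genes. Of the 10, 6 were highest in 139 (Cxcl2, Cxcl3, Cxcl5, Cxcl9, Cxcl10 and Cxcl13), against 29.9% of all tested genes. Without 139 the median was 0.13, with 6 higher and 4 lower, and without 140 it was -1.87. The sign of the group median therefore rested on 139.

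The other 5 CXC ligands listed were all tested, with 3 higher, 2 lower and a median of 0.41, though Cxcl11 reached the filter only through 139. Pf4, a platelet and macrophage chemokine, stood at 12.4 FPKM in 139 and 11.05 in 140 (Usp25+/+), beside 24.4 in 826 and 20.6 in 850 (Usp25-/-), without overlap. Its log2 fold change was 0.88 (SE 0.28; unadjusted limma p of 0.0243, limma adjusted p = 0.960). Of these 5 ligands 1 separated upwards, Pf4, and 1 downwards, Cxcl11, against 19.0% and 14.7% of all tested genes. Platelet and megakaryocyte markers were nearly absent, with 5 of 6 below 1 FPKM in every library and Treml1 and Gp1bb the most abundant, and the list summed to between 1.70 and 2.58 FPKM. Ppbp, the other platelet chemokine, was listed at 19.2, 0.646, 13.8 and 2.95 FPKM in 139, 140, 826 and 850. Cxcl17, a mucosal chemokine of airway, stood at 37.0, 19.8, 50.03 and 31.8 FPKM, the same order of libraries as Cxcl16. Cxcl14, a chemokine of epithelium, stood at 5.11, 8.60, 5.74 and 2.60 FPKM. Macrophage and monocyte markers, among them Chil3 at 6219 to 8882 FPKM and Cd68 at 331 to 874 FPKM, summed to 7325, 10345, 9792 and 7380 FPKM. Most of each sum was Chil3, the only 1 of the 10 markers with a positive log2 fold change (0.027). The other 9 were lower in Usp25-/-, none was called, and the list median was -0.41, or -0.23 without 139. Separation downwards was found in 3 of the 10, against 14.7% of all tested genes. The 8 CXC receptors had 7 tested members, 5 lower and 2 higher, with a median of -0.23.

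**Figure D4:**
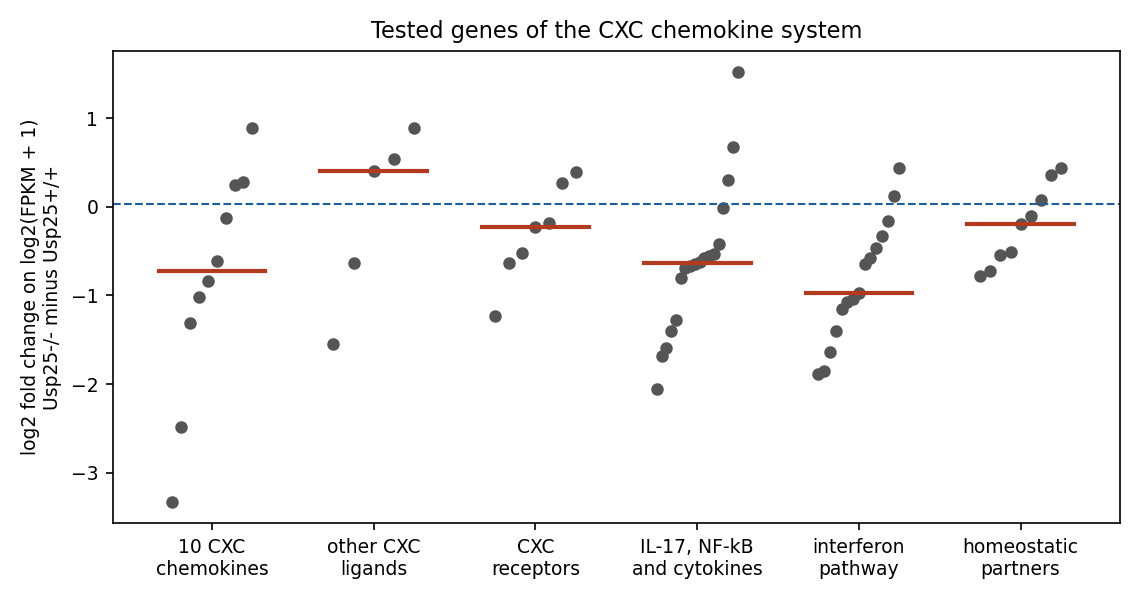
Log2 fold change on log2(FPKM + 1), Usp25-/- minus Usp25+/+, of each tested gene (grey points, sorted within a list), with the list median as a red bar and the median of all tested genes (0.03) as a dashed line. The medians of the 10 chemokines (-0.72), of the cytokine and NF-kB genes (-0.63) and of the interferon pathway (-0.98) lie below the dashed line, and that of the other CXC ligands (0.41) above it.

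The genes with the most similar profiles differed between the chemokines. Likeness was the root-mean-square difference of centred log2(FPKM + 1) over the 4 libraries, and genes whose mean reached 5 FPKM were candidates. Cxcl9 was nearest to Ly6i (0.39), Gbp2 (0.40) and Gbp5 (0.41), and Cxcl10 to Ifit2 (0.22), Rtp4 (0.23) and Gbp6 (0.31). Cxcl2 was nearest to Lpcat2 (0.027), Slc2a6 (0.065) and Rnd1 (0.077), Cxcl3 to Il1r2 (0.35), G0s2 (0.40) and Csf3 (0.41), and Cxcl5 to Pglyrp1 (0.31), Egln3 (0.42) and AA467197 (0.44).

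The remaining chemokines had other neighbours. Cxcl1 was nearest to Eno1b (0.062), Nupr1 (0.077) and Bnip3 (0.085), and Cxcl15 to Mcm6 (0.036), Ptrf (0.056) and Kti12 (0.058). Cxcl12 was nearest to Jchain (0.14), Ier5l (0.27) and Gng11 (0.31), Cxcl13 to Ltb (0.33), Reg3g (0.43) and Snord37 (0.50), and Cxcl16 to Larp1b (0.019) and Fam102a (0.030). Among the 10, Cxcl1 and Cxcl16 (0.30) and then Cxcl9 and Cxcl10 (0.58) had the smallest distances, while Cxcl3 and Cxcl12 (3.03) were farthest apart. The distance is small between any genes that vary little. Among all candidates, Cxcl16 held place 521 for Cxcl1, and Cxcl1 place 1239 for Cxcl16. Cxcl10 held place 11 for Cxcl9, and Cxcl9 place 66 for Cxcl10. With 4 libraries, small distances arise in many genes, and they are given as a description.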

How the data were processed

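Poly(A) RNA from 4 mice was sequenced as paired reads without strand information, per the labels' protocols. Reads were handled with TopHat2 2.1.1, cutadapt and Cufflinks on mm9, per the submitters' processing notes, with the annotation not given in the sources used here. What the authors deposited is read as FPKM, the usual output of Cufflinks, since no header states a unit; totals ran from 526652 to 565645. A few very abundant genes can lower all other FPKM values of a library. A repeated smallest step was sought in FPKM times transcript length. The fullest bin held 30, 51, 28 and 54 genes in 139, 140, 826 and 850. Bins below it held 165, 136, 224 and 171 genes, so no smallest step was identified. Whole fragments were therefore not recovered, depth is unknown and no counting interval is given. Genes above 0 numbered 20556 in 139 and 15603, 17242 and 15805 in 140, 826 and 850. The part of this difference in the zeros and low values of single genes was not tested.

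Tested were the 12011 of 24421 genes whose mean reached 1 FPKM. A gene can pass this filter through 1 library only, as Cxcl11, Ifng, Il12b and Il17f did through 139. The scale was log2(FPKM + 1), on which changes of low genes come out too small. The test was limma 3.58.1 in R 4.3.3 (eBayes with trend, two-sided, Benjamini-Hochberg, threshold 0.05). It was also run on simulated data with independent noise of the same spread in each library. That setting does not cover a library that stands apart from the others, as 139 does, so nothing is concluded from it. The genotypes share no animal identifiers, so no pairing was used. P-values measure the spread between 2 animals per genotype. The members and the gene lists were chosen with earlier results of these data known. Named were all members, Usp25, other CXC ligands and receptors, the 3 largest changes of each pathway list, the 2 most abundant genes of each marker list and the 3 nearest profiles per member, of which 1 is not reported here. Genes named outside this rule (Cdx1, Zg16, Aqp8, Ddx3y, Eif2s3y, Xist, Mpo, Elane, Il12b and Il17f) were chosen after their values were seen. In the colon list the most abundant genes were Car4, also made by lung endothelium (193, 399, 277 and 367 FPKM), and Krt20 (4.31, 3.11, 52.4 and 7.35 FPKM in 139, 140, 826 and 850). Positions come from GENCODE vM1 on NCBIM37 (mm9), and sequences were handled with Biopython 1.88. Alternatives were another pseudocount, other filters and scalings, no variance trend, and leaving out each library.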

Additional observations from a re-analysis of the deposited data

How the results depend on the processing

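Limma called 0 genes under each of the 10 alternatives run. At an unadjusted p of 0.05 it gave 375 genes, 569 with no filter on low values, 227 with a filter of 5 FPKM, and between 103 (without 826) and 2577 (without 140) when a library was left out. The median of the 10 chemokines, -0.72, stayed between -0.81 and -0.72 under other pseudocounts, filters, scalings and variance models. When a library was left out it ran from -1.87 (without 140) to 0.13 (without 139). No chemokine changed sign under another pseudocount, filter, scaling or variance model. Leaving out libraries moved the log2 fold change of Cxcl1 from -0.61 to 0.35, of Cxcl2 from -2.85 to 0.22, of Cxcl3 from -3.83 to 1.81, of Cxcl5 from -2.04 to 2.53, of Cxcl12 from -1.88 to 0.66, of Cxcl13 from -2.11 to 0.44 and of Cxcl16 from -0.038 to 0.61. Cxcl9 (-5.38 to -1.27), Cxcl10 (-4.04 to -0.92) and Cxcl15 (0.63 to 1.15) do not overlap between the genotypes, so their sign could not turn, which is no sign of stability. Where 1 library remained in a genotype, its spread was taken from the other genotype. The cause of these shifts was not tested. Depth is unknown, so that low values such as those of Cxcl9 and Cxcl13 in Usp25-/- carry an error that cannot be given. No paired analysis was possible because the genotypes share no animal numbers.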
